A study of Arabidopsis thaliana with 15 samples.

Results

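The glutathione S-transferase (GST) family of Arabidopsis was followed in leaf 6, an untreated leaf, after leaf 1 of the same plant had been given glutathione (GSH), glutamate (Glu) or a wound. The family comprised 41 genes, taken by gene ID from the 32833 genes of the expression table and not by their values. They were 23 genes of the tau class (GSTU), 11 of the phi class (GSTF), 1 of the zeta class (GSTZ1), 3 of the lambda class (GSTL) and 3 dehydroascorbate reductases (DHAR). Of these, 29 had at least 1 FPKM (fragments scaled to the length of the transcript and to all mapped fragments of the library) in 3 or more of the 15 libraries and were tested, among 17571 such genes. Every library came from leaf 6 of Col-0 wild-type (WT) plants 22 to 24 days old, with 3 libraries in each of 5 groups. The mock group had received no small molecule, and the GSH and Glu groups were collected 1 h after 100 mM of either molecule had been applied to leaf 1. The wounding mock group was collected before wounding and the wounding group 1 h after leaf 1 had been wounded. In the study's methods the molecules, dissolved in growth medium, went onto the cut edge of a leaf that had been cut earlier and left to recover. The labels do not say whether leaf 1 of the mock plants had been cut, and no group is labelled as given the medium alone. Whether the 3 libraries of a group came from separate plants is not stated either, so p values measure the spread between these libraries, which may be technical.

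GSTs join the tripeptide GSH to reactive or toxic molecules, or use it to reduce them, and the conjugates are moved into the vacuole by ABCC transporters. The large tau and phi classes hold most of the conjugating enzymes and are known for their induction by herbicides, pathogens and oxidised lipids. Zeta enzymes act in the breakdown of tyrosine, while lambda enzymes and DHARs carry a cysteine at the active site and act as reductases. DHARs use GSH to return dehydroascorbate to ascorbate.

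The labelled tissue was checked against marker genes. The 4 mesophyll markers summed to between 11056 and 16187 FPKM in every library, against 25.8 to 62.7 FPKM for the 4 root markers, of which 1 or 2 were listed at 0 in each group. After wounding, the summed FPKM of the 2 epidermis markers was 58.1 to 63.7 against 97.7 to 137 in the wounding mock group, and that of the 2 phloem companion cell markers was 84.3 to 94.8 against 116 to 139.7. For the 4 mesophyll markers the range after wounding was 12109 to 12723 against 15661 to 16187, and for the 3 guard cell markers it was 33.8 to 35.5 against 25.2 to 27.5. Sums can hide single genes. At an adjusted p under 0.05 in limma, 1 of the 2 phloem markers was lower after wounding (median log2 fold change of the 2 markers -0.14). Of the mesophyll markers 3 of 4 were lower (median -1.38), both epidermis markers were lower (median -0.91), and 1 of the 3 guard cell markers was higher (median 0.22). Among all tested genes, 10.3% were lower and 8.29% higher after wounding. The guard cell sum was also 35.4 to 42.2 with GSH and 39.4 to 42.5 with Glu, against 27.7 to 30.7 in the mock group. The epidermis sum was 114 to 122 with GSH and 108 to 110.3 with Glu, against 90.9 to 97.5 in the mock group. The mesophyll sum was 12690 to 13723 with GSH, below the 14399 to 14892 of the mock group, and 11056 to 14669 with Glu. The part of these shifts in the results below was not tested, and in whole-leaf RNA fewer cells of a type cannot be told apart from less RNA per cell. Wounding mock replicate 1 stood apart, with 18664 genes above 0 against 21090 to 21750 in the other libraries. Its correlation of log2(FPKM + 1) over genes with the other wounding mock libraries was 0.95, against 0.977 to 0.99 for all other replicate pairs. FPKM values keep no depth, so the number of fragments behind a value is unknown.

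The family took 0.438% of all FPKM in the wounding mock group and 1.16% in the wounding group (means of 3 libraries, SD 0.0409 and 0.0226). In the mock, GSH and Glu groups its share was 0.629%, 0.695% and 0.694% (SD 0.0565, 0.024 and 0.0213). By class, the 3 DHAR genes summed to 374, 551 and 529 FPKM in the wounding mock libraries and to 2601, 2551 and 2462 FPKM after wounding. The 11 phi genes summed to 826, 808 and 911 FPKM before and 2008, 1834 and 1890.1 FPKM after wounding, and the 23 tau genes to 795, 933 and 1119 and 1858, 1891 and 1887 FPKM. The sums of these 3 classes did not overlap between the groups, whereas the 3 lambda genes, at 168, 238 and 205 FPKM before and 192, 204 and 197 FPKM after wounding, overlapped. Single genes made up most of these changes. The mean tau sum went from 949 to 1879 FPKM, and GSTU5 alone from 96.1 to 1069 FPKM. The mean DHAR sum went from 485 to 2538 FPKM, and DHAR1 alone from 268 to 2302 FPKM. For the phi class the means were 848 and 1911 FPKM, and for GSTF9 alone 713 and 1567 FPKM. With GSH the phi sum was 1029, 1230.1 and 1205 FPKM and with Glu 1206, 1239 and 1157 FPKM, against 1063, 1044 and 1008 FPKM in the mock libraries. The DHAR sum was 1324, 1052 and 1074 FPKM with GSH and 1177, 1167 and 1196 FPKM with Glu, above all 3 mock libraries (946, 959 and 793 FPKM), and the tau sums of the mock, GSH and Glu groups overlapped.

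**Figure D1:**
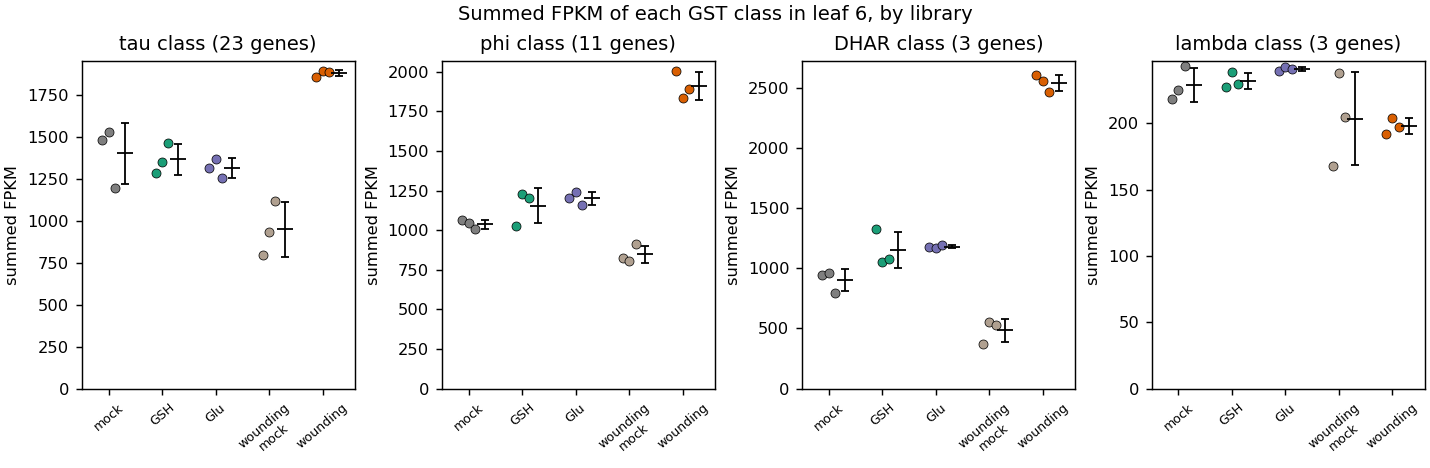
Summed FPKM of the members of 4 GST classes in each library of leaf 6, by group; points are libraries, and the bar beside them is the mean with its SD (n = 3). The wounding libraries of the tau, phi and DHAR classes lie above all other libraries, and those of the lambda class do not. Most of the change after wounding came from GSTU5 in the tau, GSTF9 in the phi and DHAR1 in the DHAR class.

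In the TAIR10.1 annotation the tau genes have 2 coding exons, the phi genes 2 or 3, GSTZ1 10, the lambda genes 9 or 10 and the DHAR genes 3 to 6, and 22 of the 41 members lie in 8 arrays of neighbouring members. A few genes carried most of the sums. Over all 15 libraries, DHAR1 had the highest mean, at 1019 FPKM, followed by GSTF9 at 949.7, GSTU19 at 443, GSTU20 at 425 and GSTU5 at 363 FPKM. The order depended on the group. In the mock group GSTF9 (859 ± 8.47 FPKM, SD, n = 3) stood above DHAR1 (662 ± 93.9), and the ranges of GSTU20 (596 ± 74.2) and GSTU19 (508 ± 98.3) overlapped. After wounding, DHAR1 led (2302 ± 73.4 FPKM), followed by GSTF9 (1567 ± 82.3) and GSTU5 (1069 ± 14.8), with ranges that did not overlap. The other 12 members are left out of the tests below. Their highest values over the 15 libraries were 0.854 FPKM for GSTU28, 0.759 for GSTU8, 0.73 for GSTU2 and 0.137 for GSTF3. GSTU3, GSTU9, GSTU11, GSTU12, GSTU25, GSTF13 and GSTL1 did not exceed 0.09 FPKM in any library, and GSTF14 was listed at 0 in all of them. Among the tested genes, GSTU4, GSTU6, GSTU24 and GSTF7 reached 1 FPKM only in libraries of treated groups, so their place among the tested genes rests on the groups in which they were high.

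The upstream sequences of 4 members on which the results turn are given because TGACG, the letters bound by TGA transcription factors, is known from promoters of stress-inducible GSTs. Each is the 300 bases before the annotated gene start in TAIR10.1 (RefSeq), 5′ to 3′ on the strand of the gene, with TGACG on either strand (CGTCA on the other) and the G-box CACGTG, which reads the same on both strands, in capitals. GSTU5 (chr2:12625791-12626090, minus strand of the chromosome) and GSTU6 (chr2:12621232-12621531, minus strand) are neighbours, DHAR1 (chr1:6774524-6774823, minus strand) carries both motifs, and GSTF8 (chr2:19556026-19556325, plus strand) rose with Glu.
GSTU5: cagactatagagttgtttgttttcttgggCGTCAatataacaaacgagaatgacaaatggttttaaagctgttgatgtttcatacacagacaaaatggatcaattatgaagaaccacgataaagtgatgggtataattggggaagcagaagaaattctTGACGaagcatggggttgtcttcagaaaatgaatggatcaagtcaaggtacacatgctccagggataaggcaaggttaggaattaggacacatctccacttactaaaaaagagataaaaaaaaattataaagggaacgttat
GSTU6: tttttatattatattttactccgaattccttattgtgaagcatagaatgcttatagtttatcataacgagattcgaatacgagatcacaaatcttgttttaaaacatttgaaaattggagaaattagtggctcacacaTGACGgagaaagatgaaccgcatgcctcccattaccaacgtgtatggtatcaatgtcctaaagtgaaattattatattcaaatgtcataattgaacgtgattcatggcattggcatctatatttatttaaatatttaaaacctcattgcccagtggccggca
DHAR1: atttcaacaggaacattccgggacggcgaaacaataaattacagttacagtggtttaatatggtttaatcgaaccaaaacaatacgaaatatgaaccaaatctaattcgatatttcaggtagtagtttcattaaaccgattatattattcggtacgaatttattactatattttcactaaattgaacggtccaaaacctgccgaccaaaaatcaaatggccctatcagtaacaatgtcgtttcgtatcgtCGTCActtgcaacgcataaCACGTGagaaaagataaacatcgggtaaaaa
GSTF8: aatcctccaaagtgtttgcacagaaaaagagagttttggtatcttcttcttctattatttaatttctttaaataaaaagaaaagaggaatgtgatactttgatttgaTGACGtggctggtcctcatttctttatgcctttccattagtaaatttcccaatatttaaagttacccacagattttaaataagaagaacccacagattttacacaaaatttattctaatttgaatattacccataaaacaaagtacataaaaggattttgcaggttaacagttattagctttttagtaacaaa
The leftmost base of TGACG or CGTCA lay 271 and 142 bases before the start of GSTU5, 162 bases before that of GSTU6, 50 bases before that of DHAR1 and 193 bases before that of GSTF8. In DHAR1 the G-box lay 31 bases before the start. The annotated GSTF8 gene runs from 19556326 to 19559485 with 792 coding bases and overlaps another gene on the same strand. Its window may therefore not be the GSTF8 promoter known as a stress reporter. TGACG was found in 17 of the 41 members (41.5%) and in 11 of the 29 tested members (37.9%), against 21.9% of 16884 tested protein-coding genes. The G-box was found in 6 of the 29 tested members (20.7%), against 8.16% of the tested protein-coding genes. By outcome after wounding, TGACG was found in 6 of the 11 members that rose, in both members that fell, in 3 of 16 that did not pass, and in 6 of the 12 untested members. GSTU4, GSTU13, GSTF9 and GSTF11, which rose after wounding, have neither motif in this window. The 4 sequences shown all carry TGACG and do not stand for all members that rose.

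Groups were compared with limma on log2(FPKM + 1), and a gene rose or fell where the adjusted p (Benjamini-Hochberg over all 17571 tested genes) was under 0.05. It was a differentially expressed gene (DEG) where the absolute log2 fold change also exceeded 1. All log2 fold changes below are on this scale, which understates the change of genes with low FPKM. With 3 libraries against 3, an exact permutation test of one gene could not go below p = 0.1. After wounding, 11 of the 29 tested members rose and 2 fell, where 8.29% of all tested genes rose and 10.3% fell, and 7 members were DEGs that rose and 1 a DEG that fell, where 5.06% and 2.63% of all tested genes were. With Glu, 8 members rose and none fell, where 6.66% of all tested genes rose and 2.71% fell, and 2 were DEGs that rose (GSTF8 and GSTF7), where 1.14% of all tested genes were. With GSH, 5 members rose and none fell, where 3.92% of all tested genes rose and 0.535% fell, and 2 were DEGs that rose (GSTF10 and GSTU4), where 1.19% of all tested genes were. Treated and control libraries did not overlap for 15 members after wounding, 10 with Glu and 14 with GSH, where this held for 38.3%, 31.9% and 26.4% of all tested genes. The unadjusted p was under 0.05 in 13 members after wounding, 10 with Glu and 16 with GSH, where this held for 31.2%, 26.4% and 20.3% of all tested genes. GSTU4 and GSTU6 are counted with GSH and after wounding, and GSTF7 with Glu, although these genes reached 1 FPKM only in treated groups. The counts in all 3 treatments thus rest in part on genes tested only because of groups in which they were high. With the 1 FPKM filter applied to the libraries of the mock and GSH groups alone, GSTU4 was not tested, and 4 of 25 members rose with 1 DEG, GSTF10. The median log2 fold change of the 29 members was 0.16 after wounding, 0.13 with Glu and 0.40 with GSH, against -0.08, 0.01 and 0.05 over all tested genes. In all, 16 members passed in at least 1 treatment. GSTU13 and GSTF10 passed in all 3, and 13 members passed in none. GSH and Glu share the 3 mock libraries as their control, so their outcomes are not independent of each other.

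**Figure D2:**
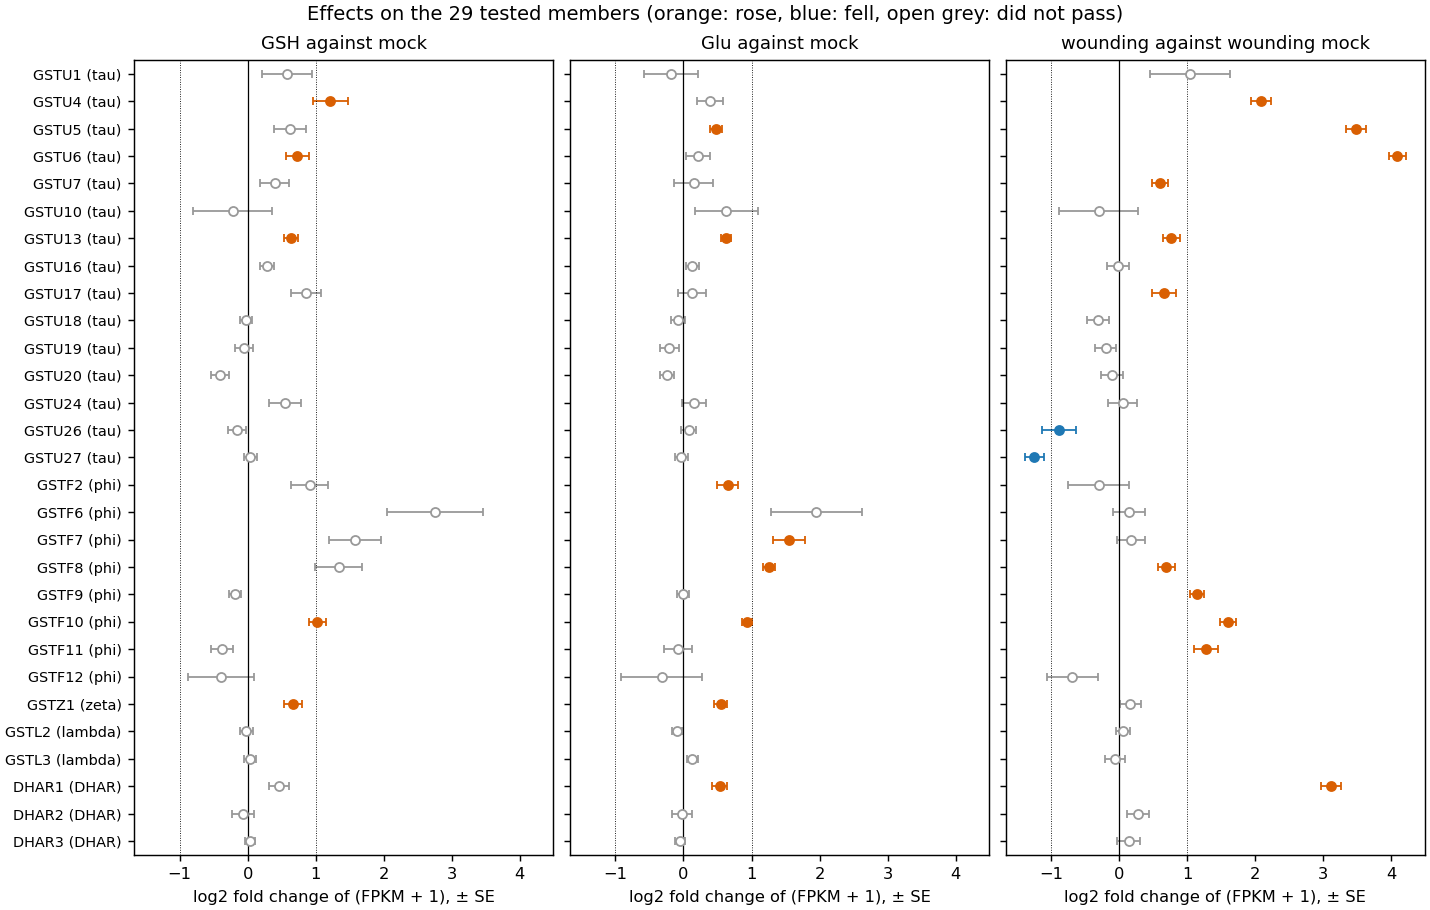
Log2 fold change of FPKM + 1 with its SE for the 29 tested members in each treatment against its own control; filled orange points rose, filled blue points fell and open grey points did not pass. The wounding panel holds the largest values, up to 4.09 for GSTU6, and the only 2 members that fell.

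Among the 15 tested tau genes, 6 rose and 2 fell after wounding, 3 rose with GSH and 2 rose with Glu. Of all tested genes, 8.29% rose and 10.3% fell after wounding, 3.92% rose with GSH and 6.66% rose with Glu. The 7 tau genes GSTU1 to GSTU7 (AT2G29490, AT2G29480, AT2G29470, AT2G29460, AT2G29450, AT2G29440 and AT2G29420) lie side by side on chromosome 2, and 4 of them, GSTU4, GSTU5, GSTU6 and GSTU7, rose after wounding. GSTU5, the most abundant of them, was at 76, 102 and 111 FPKM in the wounding mock libraries and at 1052, 1081 and 1073 FPKM in the wounding libraries. All 3 wounding libraries lay above every other library of the series. The ratio of the means was 11.1, and the log2 fold change was 3.48 (SE 0.14, adjusted p = 4.5e-06). GSTU6, whose coding sequence is 83.5% identical to that of GSTU5, was at 0.62, 0.796 and 0.76 FPKM before and 28.7, 27.8 and 28.5 FPKM after wounding. Among tested members with FPKM above 0 in the wounding mock group this was the largest ratio of means, 39.1, with a log2 fold change of 4.09 (SE 0.12, adjusted p = 7.9e-07). GSTU4 was listed at 0 in all 3 wounding mock libraries and at 3.6, 3.12 and 3.01 FPKM after wounding (adjusted p = 9.1e-05, limma), so no fold is given. For GSTU7 the values were 13.8, 12.4 and 13.3 FPKM before and 20.5, 18.5 and 22.4 FPKM after wounding, a log2 fold change of 0.60 (SE 0.11, adjusted p = 0.01). Without wounding replicate 1 or 3, GSTU7 did not pass (highest adjusted p = 0.068 in limma).

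With GSH, GSTU4 and GSTU6 rose in this array. GSTU4 was at 0, 0.0752 and 0 FPKM in the mock libraries and at 0.737, 2.57 and 1.17 FPKM with GSH (log2 fold change 1.22, SE 0.25, adjusted p = 0.034). GSTU6 was at 0.748, 0.644 and 0.878 FPKM in the mock libraries and 1.37, 2.09 and 2.38 FPKM with GSH (log2 fold change 0.73, SE 0.17, adjusted p = 0.047). The groups did not overlap in either gene, and all mock libraries were under 1 FPKM. Both calls were lost without any single library other than GSH replicate 1 (leave-one-out adjusted p 0.0054 to 0.12 for GSTU4 and 0.0098 to 0.16 for GSTU6, limma). GSTU5 did not pass with GSH, where GSH replicate 1 lay within the mock range and the others above it. Its values were 176, 169 and 144 FPKM in the mock group and 161, 308 and 316 FPKM in the GSH group (log2 fold change 0.62, SE 0.23, adjusted p = 0.17). Without GSH replicate 1 its log2 fold change was 0.94 (adjusted p = 0.00092, limma). With Glu, GSTU5 rose to 227, 229 and 223 FPKM (log2 fold change 0.48, SE 0.09, adjusted p = 0.014; without Glu replicate 1, adjusted p = 0.077), while GSTU4 (0.525, 0.54 and 0.0436 FPKM, adjusted p = 0.23 in limma) and GSTU6 (0.835, 1.57 and 0.788 FPKM, adjusted p = 0.47) did not pass. At the far end of the array, GSTU1 passed in no treatment, with 0, 3.95 and 4.27 FPKM before and 5.08, 5.06 and 5.11 FPKM after wounding. GSTU2 and GSTU3 were not tested. GSTU6 and GSTU7 overlap genes on the opposite strand, and whether reads were counted by strand is not given in the sources used here.

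**Figure D3:**
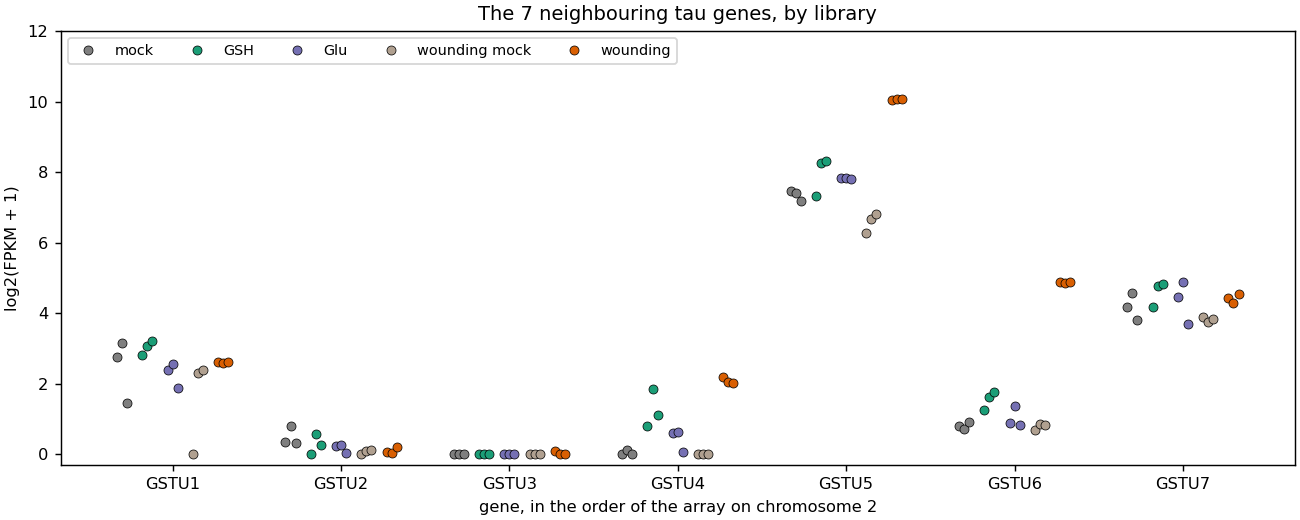
log2(FPKM + 1) of the 7 neighbouring tau genes GSTU1 to GSTU7 in each library, in their order on chromosome 2; each point is a library and colours mark the 5 groups. GSTU4, GSTU5 and GSTU6 are highest in the wounding libraries, beside GSTU2 and GSTU3, which stay near 0 in all groups.

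Outside this array, GSTU13 (AT1G27130) rose in all 3 treatments. It contributes to immunity against fungi through indole glucosinolate products. It was at 28.5, 27.8 and 26.1 FPKM in the mock, 38.2, 47.6 and 44.2 FPKM in the GSH and 44.6, 44.5 and 39.8 FPKM in the Glu libraries. Its log2 fold change was 0.63 (SE 0.10, adjusted p = 0.011) with GSH and 0.63 (SE 0.08, adjusted p = 0.0023) with Glu. After wounding it went from 22.1, 28.3 and 26.8 FPKM to 48, 41.1 and 43.5 FPKM, a log2 fold change of 0.76 (SE 0.12, adjusted p = 0.0051). In none of the 3 did the treated libraries overlap their controls. Without mock replicate 2 or GSH replicate 3 the call with GSH was lost (adjusted p = 0.052 and 0.054, limma).

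GSTU17 (ERD9, AT1G10370), which acts in light and drought responses, and its neighbour GSTU18 (AT1G10360) overlap on the same strand and differed in outcome. GSTU17 rose after wounding, from 7.86, 6.94 and 10.9 FPKM to 14.3, 12.6 and 15 FPKM (log2 fold change 0.66, SE 0.17, adjusted p = 0.035), and did not pass without wounding mock replicate 2 or without any 1 wounding library (leave-one-out adjusted p 0.01 to 0.15, limma). GSTU18 did not pass, at 28.3, 40.1 and 33.2 FPKM before and 25.4, 31.7 and 24.1 FPKM after wounding (log2 fold change -0.31, SE 0.16, adjusted p = 0.24). With GSH, GSTU17 was at 10.4, 14.3 and 13.6 FPKM against 8.08, 8.08 and 4.17 FPKM in the mock group and did not pass (log2 fold change 0.86, SE 0.22, adjusted p = 0.062). Because the genes share bases, part of the signal of one could be counted for the other.

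GSTU26 (AT1G17190) and GSTU27 (AT3G43800) fell after wounding, and no member fell with GSH or Glu. GSTU27 went from 23.7, 25 and 21.3 FPKM to 7.93, 9.14 and 10.8 FPKM (log2 fold change -1.25, SE 0.14, adjusted p = 0.00073), below every other library of the series. It was at 21.5, 21.2 and 18 FPKM in the mock, 21.1, 21 and 20.1 FPKM in the GSH and 20.3, 17.8 and 21.2 FPKM in the Glu libraries. GSTU26 went from 2.82, 3.73 and 4 FPKM to 0.712, 1.84 and 1.95 FPKM (log2 fold change -0.89, SE 0.24, adjusted p = 0.044). This call was lost without any single library other than wounding mock replicate 1 (leave-one-out adjusted p 0.017 to 0.12 in limma). GSTU24, of the same array, which can detoxify the explosive trinitrotoluene, did not pass in any treatment and did not exceed 2.11 FPKM.

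The neighbours GSTU19 (AT1G78380) and GSTU20 (AT1G78370) were the most abundant tau genes in the mock group and passed in no treatment. GSTU20, which is known to act in aliphatic glucosinolate synthesis, was at 665, 606 and 517 FPKM in the mock, 493, 379 and 478 FPKM in the GSH and 499, 526 and 477 FPKM in the Glu libraries. All GSH libraries lay below the mock libraries, with a log2 fold change of -0.41 (SE 0.13, adjusted p = 0.13). In the wounding experiment it was at 266, 257 and 379.6 FPKM before and 254, 298 and 279 FPKM after. GSTU19 was at 503, 608 and 411 FPKM in the mock and 479.5, 479 and 493 FPKM in the GSH libraries, and at 339, 437 and 502 FPKM before and 387, 346 and 365 FPKM after wounding. GSTU16 and GSTU10 did not pass either, and GSTU10, which overlaps 2 other genes, varied between 0 and 3.29 FPKM within groups.

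Among the 8 tested phi genes, 4 rose after wounding, 4 with Glu and 1 with GSH, where 8.29%, 6.66% and 3.92% of all tested genes rose. GSTF9 (AT2G30860) and GSTF10 (AT2G30870) are neighbours on chromosome 2, and both have been linked with indole glucosinolate synthesis. After wounding both rose. GSTF9 was at 705, 663 and 770.0 FPKM before and 1659, 1502 and 1539 FPKM after wounding (log2 fold change 1.14, SE 0.10, adjusted p = 0.00026), and GSTF10 at 73.1, 92.8 and 94.4 FPKM and 265, 258 and 267 FPKM (log2 fold change 1.60, SE 0.12, adjusted p = 9.2e-05). With GSH and Glu, GSTF10 passed and GSTF9 did not. GSTF10 rose from 97.8, 102 and 93.8 FPKM in the mock group to 169, 247 and 192 FPKM with GSH (log2 fold change 1.02, SE 0.13, adjusted p = 0.0043) and to 184, 201 and 179.8 FPKM with Glu (log2 fold change 0.93, SE 0.07, adjusted p = 0.00026). GSTF9 did not pass, at 868, 851 and 857 FPKM in the mock, 747, 704 and 821 FPKM in the GSH and 866, 891 and 803 FPKM in the Glu libraries. The log2 fold changes of GSTF9 were -0.18 with GSH and -0.01 with Glu, both with intervals that include 0 (-0.39 to 0.02 and -0.20 to 0.18, 95% intervals).

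GSTF8 (AT2G47730), whose promoter is a classic reporter of oxidative and salicylate stress, rose with Glu and after wounding. It was at 47.6, 46.9 and 39.5 FPKM in the mock group and at 108, 100.1 and 116 FPKM with Glu (log2 fold change 1.26, SE 0.09, adjusted p = 0.00019). After wounding it went from 34.7, 42.5 and 32.9 FPKM to 64.6, 55.7 and 58.9 FPKM (log2 fold change 0.69, SE 0.12, adjusted p = 0.0076). With GSH the libraries were at 58.7, 189 and 133 FPKM, all above the mock group, with GSH replicates 2 and 3 far above GSH replicate 1. GSTF8 did not pass there (log2 fold change 1.34, SE 0.34, adjusted p = 0.065), and without GSH replicate 1 its log2 fold change was 1.81 (adjusted p = 0.00017, limma). GSTF8 overlaps another gene on the same strand.

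**Figure D4:**
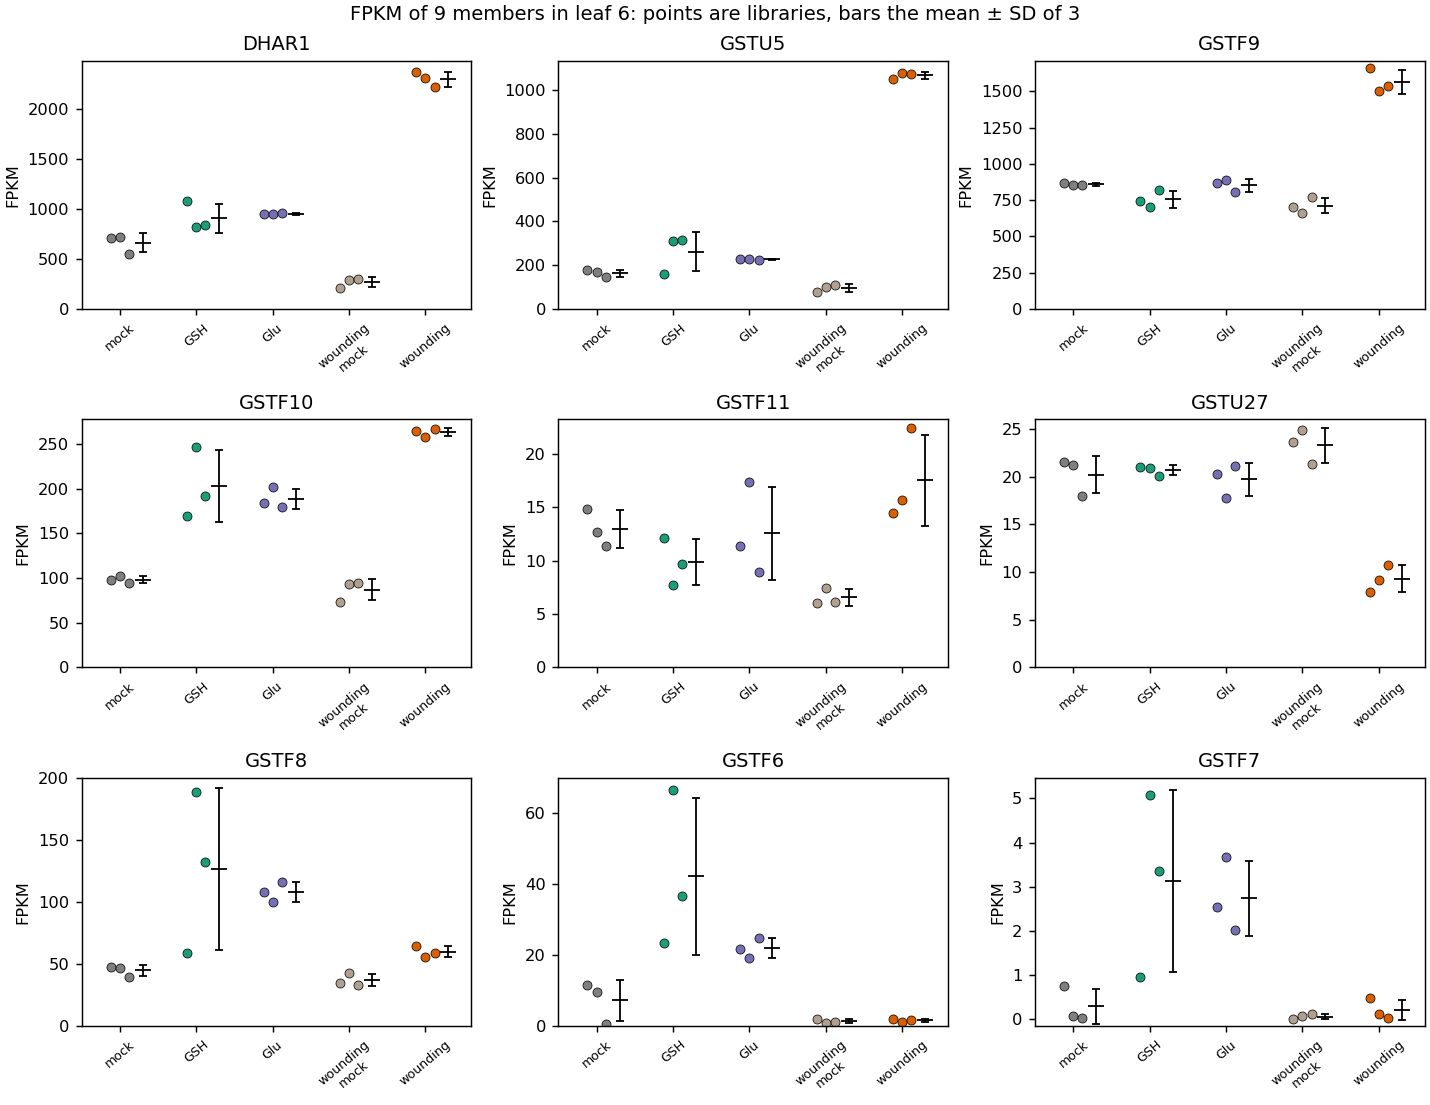
FPKM of 9 members in each library of leaf 6, by group; points are libraries, and the bar beside them is the mean with its SD (n = 3). DHAR1, GSTU5 and GSTF9 are highest after wounding, GSTU27 is lowest there, and GSTF6 and GSTF7 are highest in the GSH and Glu groups.

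GSTF6 (AT1G02930) and GSTF7 (AT1G02920) lie next to each other on chromosome 1 and have coding sequences that are 94.7% identical, so reads could be assigned to either gene. GSTF6 conjugates GSH in the synthesis of camalexin, an indole phytoalexin. GSTF7 rose with Glu, from 0.754, 0.0865 and 0.0399 FPKM to 2.53, 3.67 and 2.01 FPKM (log2 fold change 1.55, SE 0.24, adjusted p = 0.0071), and with GSH it was at 0.969, 5.07 and 3.36 FPKM and did not pass (log2 fold change 1.57, SE 0.38, adjusted p = 0.054). GSTF6 was at 11.5, 9.52 and 0.544 FPKM in the mock libraries, with mock replicate 3 far below the others. It was at 23.5, 66.8 and 36.5 FPKM with GSH and at 21.7, 19.2 and 24.8 FPKM with Glu, above the mock range in every library. It did not pass in either: the log2 fold change was 2.75 (SE 0.71, adjusted p = 0.066) with GSH and 1.95 (SE 0.67, adjusted p = 0.11) with Glu. Without mock replicate 3 it passed in both, with log2 fold changes of 1.79 (adjusted p = 0.048) and 0.99 (adjusted p = 0.007) in limma. In the wounding experiment both genes were low and neither passed. GSTF6 was at 1.95, 0.82 and 0.997 FPKM before and 1.8, 1.07 and 1.51 FPKM after wounding (log2 fold change 0.15, SE 0.23, adjusted p = 0.73), and GSTF7 did not exceed 0.48 FPKM in either group.

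Of the remaining phi genes, GSTF2 rose with Glu and GSTF11 after wounding. GSTF2 (AT4G02520), which can bind camalexin and other indoles, rose with Glu from 0.63, 0.299 and 0.452 FPKM to 1.29, 1.53 and 1.04 FPKM (log2 fold change 0.65, SE 0.15, adjusted p = 0.034). That call was lost without any single library other than Glu replicate 3 (leave-one-out adjusted p 0.037 to 0.12, limma), and with GSH it was at 0.809, 3.09 and 1.75 FPKM and did not pass (adjusted p = 0.1, limma). GSTF11 (AT3G03190), which acts in aliphatic glucosinolate synthesis, rose after wounding from 6.06, 7.47 and 6.11 FPKM to 14.5, 15.7 and 22.4 FPKM (log2 fold change 1.28, SE 0.18, adjusted p = 0.0026). In the mock libraries, however, GSTF11 was at 14.9, 12.7 and 11.3 FPKM, and against the mock group as control its log2 fold change was 0.39 (adjusted p = 0.081, limma). GSTF12 (TT19, AT5G17220), needed for anthocyanin to reach the vacuole, was at 21.8, 20.6 and 4.91 FPKM in the mock, 2.14, 1.64 and 6.22 FPKM in the wounding mock and 0.987, 1.52 and 1.85 FPKM in the wounding libraries, and passed in no treatment. GSTF2, GSTF10, GSTF11 and GSTF12 overlap genes on the opposite strand.

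GSTZ1 (AT2G02390), the maleylacetoacetate isomerase of tyrosine breakdown, rose with GSH and Glu. It was at 16.9, 16.5 and 17 FPKM in the mock group, 22, 33.2 and 27.6 FPKM with GSH and 24.8, 28.6 and 22 FPKM with Glu. Its log2 fold change was 0.67 (SE 0.14, adjusted p = 0.031) with GSH and 0.55 (SE 0.10, adjusted p = 0.013) with Glu. After wounding it was at 14.2, 18.4 and 16 FPKM against 11.9, 15.5 and 15.8 FPKM and did not pass (adjusted p = 0.53, limma). The call with GSH was lost without any single library other than GSH replicate 1 (leave-one-out adjusted p 0.0018 to 0.12), and that with Glu without mock replicate 2 or Glu replicate 1 (adjusted p = 0.052 and 0.064, limma). GSTZ1 overlaps a gene on the opposite strand. The lambda genes GSTL2 (AT3G55040) and GSTL3 (AT5G02790) passed in no treatment. Their log2 fold changes lay between -0.09 and 0.13, with GSTL2 at 53.1, 66.7 and 61.5 FPKM before and 62.1, 64.3 and 61.7 FPKM after wounding.

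DHAR1 (AT1G19570), a cytosolic dehydroascorbate reductase, had the largest change in FPKM of all members. It was at 213, 293 and 299 FPKM in the wounding mock libraries and at 2370.2, 2311 and 2224 FPKM after wounding. The ratio of the means was 8.59 and the log2 fold change 3.11 (SE 0.14, adjusted p = 7.5e-06). In the mock group it was at 709.6, 723 and 554 FPKM, above all 3 wounding mock libraries. With Glu it rose to 947, 946 and 959 FPKM (log2 fold change 0.53, SE 0.11, adjusted p = 0.025), a call lost without mock replicate 2 or any 1 Glu library (leave-one-out adjusted p 0.021 to 0.11, limma). With GSH it was at 1078, 816 and 836 FPKM, above the mock range in all libraries, and did not pass (log2 fold change 0.46, SE 0.14, adjusted p = 0.12). The other cytosolic enzyme, DHAR2 (AT1G75270), was at 13, 18.4 and 19.4 FPKM before and 19.5, 20.5 and 21.1 FPKM after wounding (log2 fold change 0.27, SE 0.16, adjusted p = 0.3). The chloroplast enzyme DHAR3 (AT5G16710) was at 148, 239.7 and 211 FPKM and 211, 219.7 and 217 FPKM (log2 fold change 0.14, SE 0.17, adjusted p = 0.65). Neither passed in any treatment.

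Whether the effect of GSH differed from that of wounding was tested as the difference between the 2 effects, each against its own control. Such a difference also holds any gap between the mock and wounding mock groups. The GSH effect was lower for 5 of the 29 members and higher for 1, where it was lower for 5.19% and higher for 8.17% of all tested genes. The log2 difference was -3.36 (SE 0.20, adjusted p = 3.4e-07) for GSTU6, -2.86 (SE 0.31, adjusted p = 5.4e-05) for GSTU5 and -2.66 (SE 0.22, adjusted p = 4.3e-06) for DHAR1, all in limma. It was also lower for GSTF11 (-1.65) and GSTF9 (-1.32), and higher for GSTU27 (1.28), which fell after wounding and had a log2 fold change of 0.04 with GSH. The median of this difference over all tested genes was 0.13, and scaling the libraries to a common median ratio moved it to -0.01 without ending any of these 6 calls. GSTF10, with -0.57 (adjusted p = 0.066, limma), and GSTF6, with 2.61 (adjusted p = 0.076), did not pass, although GSTF10 passed with that scaling (-0.73, adjusted p = 0.0081). For Glu, the effect was lower for 7 members and higher for 4, where it was lower for 6.16% and higher for 8.98% of all tested genes. The Glu effect was lower for the same 5 genes (GSTU6 -3.87, GSTU5 -3.0, DHAR1 -2.58, GSTF11 -1.36 and GSTF9 -1.15), and for GSTU4 and GSTF10 (-0.66). It was higher for GSTF7 (1.37), GSTU27 (1.22), GSTU26 (0.96) and GSTF8 (0.56). GSTF7 did not pass with a pseudocount of 0.1 (2.54, adjusted p = 0.15) or with all 15 libraries in the fit (1.37, adjusted p = 0.065). With the scaling to a median ratio GSTF8 did not pass (0.45, adjusted p = 0.11), and leaving out 1 library ended the call for GSTF8 in 6 cases and for GSTU26 in 8 (leave-one-out adjusted p up to 0.078 and 0.086, limma).

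**Figure D5:**
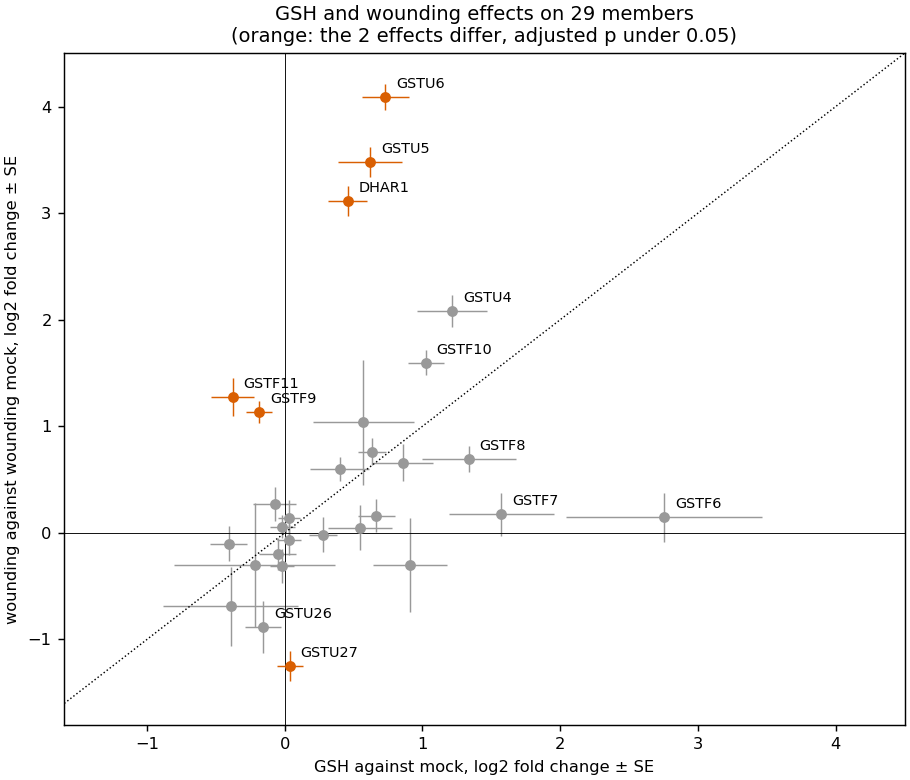
Log2 fold change with GSH (x axis) against that after wounding (y axis) for the 29 tested members, each with its SE; orange points are the 6 members for which the difference between the effects passed, and the dotted line marks equal effects. GSTU6, GSTU5 and DHAR1 lie far above the line and GSTF6 and GSTF7 to its right.

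GSH and Glu, of which Glu is 1 of the residues that make up GSH, were applied at the same dose and time and compared directly. No member passed in limma, where 0.074% of all tested genes passed. The unadjusted p was under 0.05 in 5 members and in 8.78% of all tested genes. GSTU13, GSTZ1 and GSTF10 had risen with both. For these, the GSH minus Glu difference on the log2 scale was 0.09 for GSTF10 (95% interval -0.21 to 0.39), 0.01 for GSTU13 (-0.22 to 0.23) and 0.12 for GSTZ1 (-0.23 to 0.47). The interval was wide for GSTF8 (-0.72 to 0.88) and GSTU5 (-0.38 to 0.67), and that of GSTU5 includes both 0 and the size of its effect with Glu. GSTU17 had the lowest p, with all GSH libraries above all Glu libraries (8.1, 7.31 and 6.32 FPKM) and a difference of 0.73 (95% interval 0.42 to 1.05, adjusted p = 0.18). Without GSH replicate 1, GSTU17 (difference 0.86, adjusted p = 0.036) and GSTU5 (difference 0.46, adjusted p = 0.031) passed.

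The mock and wounding mock groups, the controls of the experiments, were also compared. No member passed in limma, where 0.188% of all tested genes passed. The unadjusted p was under 0.05 in 7 members and in 6.02% of all tested genes. DHAR1 came closest, higher in the mock group by a log2 difference of 1.31 (SE 0.17, adjusted p = 0.064), and without wounding mock replicate 1 it passed (difference 1.15, adjusted p = 0.036). GSTU20 was higher in the mock group by 1.00 (SE 0.18, adjusted p = 0.15) and GSTF11 by 0.89 (SE 0.14, adjusted p = 0.11). With the mock group as control for wounding, 16 members passed, where 36.4% of all tested genes passed, and 11 of them had passed in the same direction against the wounding mock group. DHAR1 then had a log2 fold change of 1.81, GSTU5 of 2.71 and GSTU6 of 4.06, GSTF11 and GSTU7 no longer passed, and GSTU20 (-1.10), GSTF12 (-2.56), GSTU19 (-0.45), GSTU18 (-0.39) and GSTL3 (-0.32) passed as lower. The wounding mock group was also set as control for GSH and Glu. With GSH, 5 members then passed, where 2.37% of all tested genes passed. GSTF10 and GSTU13 were in both sets of calls, whereas GSTU4, GSTU6 and GSTZ1 no longer passed (adjusted p = 0.067, 0.10 and 0.052) and DHAR1 (1.76, adjusted p = 0.0023), GSTU5 (1.39, adjusted p = 0.042) and GSTF6 (4.17, adjusted p = 0.0011) did. With Glu, 9 members passed, where 6% of all tested genes passed, and 7 of them had passed against the mock group. The others were GSTF6 (3.37, adjusted p = 0.00032) and GSTU20 (0.75, adjusted p = 0.04). Against the mock group the log2 fold change of GSTU20 with Glu was -0.24, and without mock replicate 3 it passed as lower (-0.34, adjusted p = 0.045). Its direction with Glu thus depended on the control. GSTF2 no longer passed (0.31, adjusted p = 0.66), and the log2 fold change of DHAR1 was 1.84 (adjusted p = 0.00081), all in limma.

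Genes that supply GSH, move its conjugates or act beside the GSTs were described from lists chosen with the members. Of all tested genes, 8.29% rose and 10.3% fell after wounding. With GSH 3.92% rose and 0.535% fell, and with Glu 6.66% rose and 2.71% fell. Of 12 further GST genes, 6 were tested and none passed in GSH, Glu or wounding. Of 10 genes for GSH supply and conjugate transport, 3 rose and 2 fell after wounding. GGT4, which acts on GSH conjugates in the vacuole, went from 13.3, 14.9 and 11.7 FPKM to 109, 118 and 113 FPKM (log2 fold change 3.00, SE 0.11, adjusted p = 2.6e-06), and GSH2, the second enzyme of GSH synthesis, from 39, 37.6 and 40.8 FPKM to 84, 92.7 and 85.5 FPKM (log2 fold change 1.14, SE 0.09, adjusted p = 0.00014). GGT1, which breaks down GSH and its conjugates outside the cell, fell from 10.5, 10.3 and 7.9 FPKM to 3.84, 4.79 and 3.73 FPKM (log2 fold change -1.04, SE 0.16, adjusted p = 0.0036), and ABCC1, a vacuolar transporter of GSH conjugates, from 24.9, 28.7 and 28.3 FPKM to 17.7, 19.9 and 18.3 FPKM (log2 fold change -0.53, SE 0.11, adjusted p = 0.013). GGCT2;1, which degrades GSH in the cytosol, rose (1.97). With GSH 2 of the 10 genes rose and none fell. With Glu 2 rose and 1 fell, which was GR2, a plastid glutathione reductase (-0.25). PAD2, the first enzyme, did not pass in any treatment (log2 fold change 0.26 after wounding). ABCC3, a transporter of GSH conjugates, rose with GSH (log2 fold change 1.41, SE 0.27, adjusted p = 0.026) and Glu (log2 fold change 1.18, SE 0.10, adjusted p = 0.00043), from 4.32, 4.72 and 3.83 FPKM to 7.83, 21 and 13.3 FPKM and 11.2, 10.1 and 11.5 FPKM, and was at 4.37, 4.28 and 3.8 FPKM before and 4.74, 4.31 and 3.79 FPKM after wounding.

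Of the 5 genes that act beside GSTs in camalexin synthesis, 3 were tested. The others, PAD3 and CYP71A13, act in camalexin but not in glucosinolate synthesis and were at 0.299, 0 and 0.146 and 0.129, 0.0928 and 0.136 FPKM after wounding. PAD3 was at 0.249, 1.85 and 1.05 FPKM with GSH and 0.837, 0.867 and 0.569 FPKM with Glu, against 0.192, 0 and 0 FPKM in the mock group. The 3 tested genes also act in indole glucosinolate synthesis. All 3 rose after wounding and with Glu, and CYP79B2 and CYP79B3 rose with GSH. Of all tested genes, 8.29% rose after wounding, 6.66% with Glu and 3.92% with GSH. CYP79B3, which starts the indole branch from tryptophan, was at 9.32, 10.8 and 12.1 FPKM in the mock, 32.9, 25.8 and 27.8 FPKM in the GSH and 30.4, 27.5 and 33.1 FPKM in the Glu libraries, and went from 8.69, 10.5 and 8.51 FPKM to 338, 318 and 312 FPKM after wounding. GGP1, which processes the GSH conjugates of both camalexin and glucosinolate synthesis, went from 71.5, 77.6 and 83.2 FPKM to 838, 878 and 876 FPKM after wounding (log2 fold change 3.47, SE 0.09, adjusted p = 5.8e-07). Of 7 genes of glucosinolate synthesis, 4 rose after wounding and none fell, and CYP83B1, of the indole branch, rose in all 3 treatments (log2 fold change 1.32 with GSH, 1.24 with Glu and 3.59 after wounding, adjusted p = 0.00085, 0.00039 and 6.1e-06 in limma). BCAT4 went from 61.5, 56.9 and 70.5 FPKM to 132, 134.5 and 129.7 FPKM after wounding, below its 194.4, 161.1 and 171.7 FPKM in the mock libraries. CYP79F1, of the aliphatic branch in which GSTF11 and GSTU20 act, fell with GSH (log2 fold change -0.48, SE 0.09, adjusted p = 0.027) and did not pass in the other treatments. Of 6 genes that act beside DHARs in ascorbate synthesis or recycling, MDAR2 (2.04) and VTC5 (3.02) rose after wounding. With GSH 1 of the 6 rose, and with Glu 1 rose. VTC5 was at 38.4, 42.9 and 37.8 FPKM with GSH, against 25.2, 25.8 and 27.0 FPKM in the mock group. MDAR2 was at 75.1, 86.6 and 62.8 FPKM with Glu, against 49.5, 47.4 and 37.7 FPKM in the mock group. In the tyrosine breakdown pathway of GSTZ1, 1 of 3 genes passed in any treatment: HGO rose with Glu, from 5.55, 6.77 and 6.83 FPKM to 9.62, 10.6 and 8.41 FPKM (log2 fold change 0.51, SE 0.11, adjusted p = 0.028). Of 4 tested genes that act with GSTF12 on anthocyanin, 1 passed after wounding, the regulator PAP1 (2.18), which went from 5.02, 5.2 and 6.85 FPKM to 28.8, 27.4 and 31.5 FPKM. In the mock libraries, however, PAP1 was at 24.6, 26.8 and 13.3 FPKM. A last list of 9 tested genes held enzymes for other steps of detoxification and the transcription factors TGA2, TGA5 and TGA6. Of these, CYP81D11 (3.22) rose and UGT73B1 (-1.14) fell after wounding, and none passed with GSH or Glu.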

How the data were processed

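Leaf 6 was profiled in 15 libraries, 3 in each of 5 groups named by the sample labels. Per the study's methods, the authors trimmed paired-end reads with cutadapt and Trimmomatic, mapped them with HISAT2 and computed gene values with StringTie, and they called DEGs with DESeq2 (v1.16.1). The labels name TAIR10 as the genome, and the annotation and any use of strand are not given in the sources used here. The authors deposited FPKM values, which are normalised for transcript length and mapped fragments, so tests on counts were not run and the depth per library is unknown.

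The members and gene lists were chosen with earlier results of these data known. Values were compared as log2(FPKM + 1) with limma (v3.58.1, trend option) in R (v4.3.3), on genes that reached 1 FPKM in a minimum of 3 libraries, with Benjamini-Hochberg adjustment over 17571 genes. Only the groups compared entered each fit, and 7 comparisons were made, including the differences between the effects of GSH or Glu and of wounding. In data simulated for GSH against mock, 196 of 200 changed genes and 13 unchanged genes were called, and for wounding 172 of 200 and 11. Simulated data without any change gave 0 calls. How often log2 fold changes below 1, or changes in genes near 1 FPKM, would be called was not tested. Gene positions, overlaps and upstream sequences came from TAIR10.1 (RefSeq), in which all 41 members and 32548 of 32833 gene IDs were found. Per-library values are given for members past the threshold in a treatment, the 5 most abundant members and neighbouring genes that differed in outcome, and other members by their range. Additional members and list genes were named after their values had been seen. Alternatives changed the pseudocount (0.1), the filter, the scaling, the control group, the threshold, how many libraries entered the fit and the use of replicate numbers, or left out 1 library at a time. The control group was changed only for GSH, Glu and wounding against their controls, not for the differences between effects.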

Additional observations from a re-analysis of the deposited data

Results flagged for a closer look

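For 11 members the response to GSH or Glu differed from the response to wounding when the difference between the effects, each against its own control, was tested in limma. Of all tested genes, the GSH effect was lower in 5.19% and higher in 8.17%, and the Glu effect lower in 6.16% and higher in 8.98%. The values below are differences in log2 fold change, treatment effect minus wounding effect, with adjusted p values from limma. For GSTU6 the difference was -3.36 (SE 0.20, adjusted p = 3.4e-07) with GSH and -3.87 (SE 0.21, adjusted p = 1.1e-07) with Glu. For GSTU5 it was -2.86 (SE 0.31, adjusted p = 5.4e-05) with GSH and -3.0 (SE 0.17, adjusted p = 2.2e-07) with Glu, and for DHAR1 -2.66 (SE 0.22, adjusted p = 4.3e-06) and -2.58 (SE 0.19, adjusted p = 1.6e-06). GSTF11 differed by -1.65 with GSH and -1.36 with Glu, and GSTF9 by -1.32 and -1.15. In all of these the wounding effect, against its own control, was the higher one. Each difference also holds the gap between the mock and wounding mock groups. With the mock group as control, the log2 fold change after wounding was 0.39 for GSTF11 (adjusted p = 0.081, limma) and 1.81 for DHAR1. It was then 2.71 for GSTU5, 0.87 for GSTF9 and 4.06 for GSTU6. For GSTU27, which fell after wounding, the difference was 1.28 with GSH and 1.22 with Glu. With Glu alone, the difference also passed for GSTU4 (-1.69, a value that depends on the 1 added to FPKM because GSTU4 was listed at 0 in the wounding mock group), GSTF10 (-0.66), GSTU26 (0.96), GSTF7 (1.37) and GSTF8 (0.56). Whether the GSH and Glu values themselves differ is the direct comparison of GSH with Glu, in which no member passed in limma.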

How the results depend on the processing

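Of 43 calls of single members in the 7 comparisons, 26 kept their direction and an adjusted p under 0.05 under every alternative run, 17 lost it under at least 1, and none changed direction. None of the 5 calls with GSH, 4 of 8 with Glu and 8 of 13 after wounding held throughout, as did all 6 for GSH minus wounding and 8 of 11 for Glu minus wounding. The other control group was run only for GSH, Glu and wounding against their controls. It was not run for the differences between effects, so their count does not cover the choice of control. With GSH, 5 members passed; without a filter on low values none did (more genes were tested), with all 15 libraries in the fit 9 did, and with an absolute log2 fold change above 1 also required 2 did, as with Glu (2 of 8), while after wounding 8 of 13 did. With Glu, all 15 libraries in the fit gave 5. Leaving out 1 library gave 1 to 12 members with GSH (12 without GSH replicate 1, 1 without mock replicate 2 or GSH replicate 3), 4 to 9 with Glu (4 without Glu replicate 1, 5 without mock replicate 2) and 10 to 15 after wounding. It gave 0 to 2 for GSH against Glu, 0 to 1 for mock against wounding mock, 6 to 8 for GSH minus wounding and 9 to 12 for Glu minus wounding. For mock against wounding mock, where no member passed, the filter over the libraries compared and median-ratio scaling gave 1 and all 15 libraries in the fit 2. The cause of these shifts was not tested.

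The replicate numbers gave no clear pairing, as libraries of the same number did not deviate together in every pair (correlations of -0.15 to 0.19 over genes in the 3 treatments). In no comparison was every library closest to its own number. For wounding, however, pairs 1 and 2 had correlations of 0.18 and 0.19. The numbers at the end of the mock, GSH and Glu labels differ in part from the replicate numbers, and pairing by them was not tested. With the replicate block, 2 members passed with GSH, 6 with Glu and 13 after wounding. The number of fragments behind values near 1 FPKM, such as those of GSTU4, GSTU6, GSTF7 and GSTF2, is unknown.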
